A study of Drosophila melanogaster with 12 samples.

Results

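The transcripts described here encode the proteins of the mitochondrial ribosome. They are the 73 genes of both count tables whose symbol begins with mRpL (47 genes, large subunit) or mRpS (26 genes, small subunit), among 15682 genes in the table of the antibody experiment and 17559 in that of the GFP-binder experiment. RNA bound in immunoprecipitates from Drosophila embryos of 1.5–3 h, which span the onset of cellularization, was sequenced in 2 experiments. Slam (slow as molasses) is a protein of the furrow that separates the nuclei at cellularization, and Dia is a formin that elongates actin filaments there. In the first, lysate of wild-type embryos was precipitated with Slam antibody (3 libraries) or with an antibody against the formin Dia (4 libraries). In the second, a GFP-binder was applied to lysate of GFP-slam embryos (2 libraries, labelled replicates 1 and 3) and to lysate of wild-type embryos (3 libraries, titled OrR). GFP-slam is a genomic transgene with GFP at the N-terminus of Slam, and the labels do not say whether the endogenous gene is also present. The comparisons ask which transcripts are bound with Slam protein beyond what the antibody against Dia, another protein of the furrow, or a lysate without GFP retains. The study's methods call the replicates biological, and p-values here measure the spread between these libraries.

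Mitochondria carry their own ribosomes, which translate the few messages of the mitochondrial genome into subunits of the respiratory chain and of ATP synthase. In animals the ribosomal RNAs of these particles are encoded in mitochondrial DNA, while every protein is encoded in the nucleus, translated on cytoplasmic ribosomes and imported. In Drosophila the early embryo lives on mitochondria and messages that the oocyte laid down. By their numbers, 45 of the 73 members are homologs of bacterial ribosomal proteins and 28 belong to the proteins added in mitochondria. The genes lie scattered over chromosome arms 2L (12), 2R (12), 3L (17), 3R (21) and X (11). The spans of 43 members overlap a neighboring gene in the RefSeq annotation, 9 of them by more than 100 bases, and 2 lie within another gene. For those, the strand setting of the counts decides which gene receives a read, and no source used here gives it.

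Slam antibody and Dia antibody libraries held between 4383704 and 31647090 counts each, and those of the GFP-binder between 20170936 and 47249817. slam and dia, the messages of the precipitated proteins, served as a check of the precipitates. slam lay between 32099 and 119176 CPM (counts per 1000000 counts of a library, with library sizes scaled by TMM) in Slam antibody libraries and between 347 and 1443 CPM in Dia antibody libraries (log2 ratio 6.29, SE 0.767, edgeR adjusted p = 0.00421). In the GFP-binder experiment slam lay between 10649 and 11737 CPM in GFP-slam libraries and between 641 and 724 CPM in wild-type libraries (log2 ratio 4.03, SE 0.253, edgeR adjusted p = 8.07e-05). dia lay between 144 and 233 CPM with Slam antibody and between 665 and 3364 CPM with Dia antibody (log2 ratio −3.45, SE 0.545, edgeR adjusted p = 0.00664) so that it was lower with Slam antibody than with the control. The maternal germ plasm gene osk was read in all 12 libraries, and so were the maternal genes bcd, nos and pgc. None of them passed with Slam antibody (log2 ratios −0.38, −0.36, −0.90 and −0.42). The cellularization genes nullo, bnk and kuk were read in all libraries too. nullo was higher with Slam antibody than with Dia antibody (log2 ratio 2.00, SE 0.217, edgeR adjusted p = 0.000148), but did not pass in GFP-slam (log2 ratio 0.56, edgeR adjusted p = 0.749). bnk, kuk and Sry-alpha did not pass with Slam antibody (log2 ratios 0.13, −0.53 and 0.23). Sry-alpha, another gene of cellularization, lay between 287 and 519 CPM with Slam antibody and between 154 and 484 CPM with Dia antibody, but at 0 CPM in GFP-slam and at most 0.069 CPM in wild-type libraries, and the reason was not tested. The eggshell genes Vm26Aa, Vm26Ab, Cp36 and Cp38 stayed below 0.1 CPM. elav, a gene of later embryos, lay between 10.1 CPM in a GFP-slam library and 40.5 CPM in a Slam antibody library. Mhc, a muscle gene of later embryos, varied widely (52.4 to 369 CPM with Slam antibody, 62.7 to 1351 with Dia antibody, 14.5 to 204 in GFP-slam and 33.2 to 150 in wild-type libraries), and its part in the results was not tested. 72 of the 73 members passed the minimum of counts in each experiment. mRpL53 had 0 counts in all 12 libraries, and its span lies within that of AGO1 and CG33155.

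Together, the members took a small share of every library. As these are bulk samples of whole embryos, fewer cells of a type and less RNA per cell cannot be told apart, nor can less binding and less message in the lysate, since lysate RNA was not analysed here. Their summed counts made up 0.188%, 0.280% and 0.262% of the Slam antibody libraries 1, 2 and 3, against 0.281%, 0.316%, 0.291% and 0.250% of the Dia antibody libraries 1 to 4. Slam antibody library 1 was the lowest of the 12, with a Wilson 95% interval of 0.187% to 0.190% that covers counting error only. The groups overlapped, since Slam antibody libraries 2 and 3 lay above Dia antibody library 4. In the GFP-binder experiment the share was 0.318% and 0.359% in GFP-slam libraries, against 0.326%, 0.288% and 0.343% in wild-type libraries. Both GFP-slam libraries thus lay within or just above the range of wild type. On library sizes scaled by TMM their order was reversed, with 0.349% in library 1 and 0.328% in library 3. The means were 0.244% ± 0.0486 with Slam antibody (SD, n = 3) and 0.284% ± 0.0270 with Dia antibody (SD, n = 4), and 0.339% ± 0.0291 in GFP-slam (SD, n = 2) and 0.319% ± 0.0280 in wild type (SD, n = 3). slam itself took 10.02%, 3.76% and 3.37% of the counts of the Slam antibody libraries, which lowers the share left for all other transcripts there. Without the most abundant gene of each library the members took 0.209%, 0.291% and 0.272% with Slam antibody, against 0.287%, 0.319%, 0.295% and 0.254% with Dia antibody, and the groups still overlapped.

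**Figure D1:**
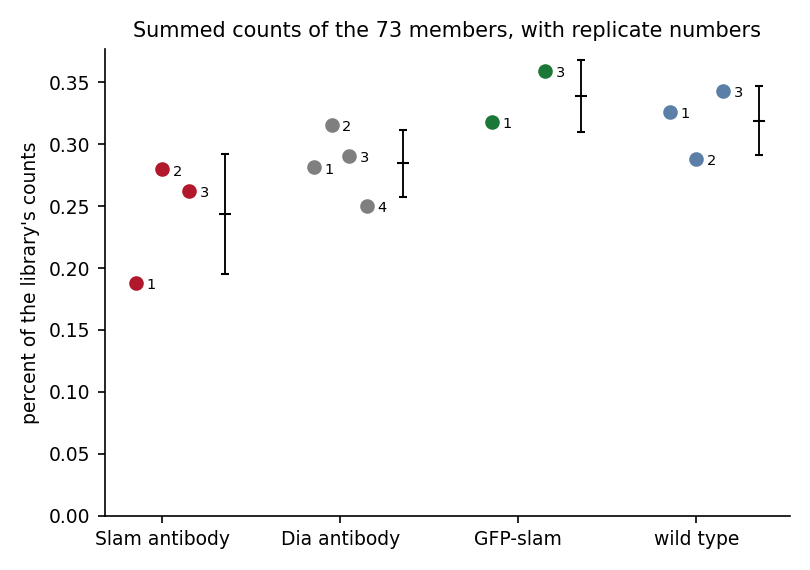
Summed counts of the 73 members as percent of the counts of each library (y axis), for the 4 groups (x axis), with replicate numbers beside the points and mean ± SD as bars (n = 3, 4, 2 and 3). Slam antibody library 1 is the lowest at 0.188%, and the ranges of both pairs of groups overlap.

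Among the members, reads were spread over a wide range. These CPM are not divided by transcript length, so they rank genes by reads and not by molecules. mRpS30 took most reads in both control groups (160 to 272 CPM with Dia antibody, 262 to 432 CPM in wild type). It is a protein without a bacterial counterpart that is counted to the small subunit by its name, although in mammals it sits in the large one. mRpL39, which has no bacterial counterpart, and mRpS7, a homolog of bacterial S7 that helps to build the head of the small subunit, were the next. mRpL39 lay between 78.2 and 107 CPM with Dia antibody and between 135 and 193 CPM in wild type, and mRpS7 between 89.6 and 111 CPM with Dia antibody and between 106 and 123 CPM in wild type. At the low end stood mRpL34, with 1.64 to 7.12 CPM with Dia antibody and 5.70 to 8.92 CPM in wild type, and mRpS24, with 2.06 to 7.79 CPM and 3.59 to 9.15 CPM. mRpS24 shares 387 bases with a neighboring gene, so that its count is uncertain. Next to them stood mRpS25 with Dia antibody (6.46 to 11.5 CPM) and mRpS21 in wild type (4.07 to 9.26 CPM). The order of the members hardly differed between both control precipitates. The log2 CPM of 72 members correlated with r = 0.951 (Spearman 0.959) between Dia antibody and wild type, a description across genes that are no independent replicates and share their length and base composition in both.

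In the precipitates with Slam antibody, 1 member was higher and 1 was lower than with Dia antibody. Of the 72 members kept, mRpL47 was 3.09-fold higher and mRpL12 1.61-fold lower (edgeR's quasi-likelihood test, adjusted p under 0.05 over 7466 genes). Each is 1.39% of the members, beside 6.84% of all genes that passed as higher and 3.62% as lower. These backgrounds moved when 1 library was left out, which also leaves fewer samples. The 511 genes higher and 270 lower became 328 and 120 without Slam antibody library 1. They became 285 and 24 without Slam antibody library 2, and 311 and 75 without Slam antibody library 3. Without Dia antibody library 1, 2, 3 or 4 they were 339 and 151, 375 and 289, 475 and 286, or 562 and 445. At an unadjusted p under 0.05, 3 members were higher and 9 lower, that is 4.17% and 12.5%, beside 15.5% and 13.7% of all genes. The labels do not say what a replicate number shares, and pairs were inferred from correlated deviations from the group means. These were 0.245, 0.385 and 0.155 for equal numbers, but also 0.258 for Slam antibody 3 with Dia antibody 4. With the number taken as a block, which leaves out Dia antibody library 4, the test called 1 member higher and 6 lower. These 6 were mRpL12, mRpS6, mRpL1, mRpL14, mRpS17 and mRpL28, and their share of 8.33% is near the 8.44% of all genes that the block called lower. Of all genes it called 10.6% higher, beside 1.39% of the members.

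mRpL47 encodes the homolog of bacterial L29, a protein of the large subunit beside the exit of the peptide tunnel. The gene (FBgn0014023) spans 3R:9514822-9515908 in the authors' deposited table of candidate genes, which was read for coordinates. The build of that table is not named, and its genes share a start or an end with Release 6 in 99.9% of 1649 cases. Reads of mRpL47 numbered 577, 1132 and 1206 in the Slam antibody libraries, against 183, 159, 47 and 244 in the Dia antibody libraries. Normalized, this was 27.4, 34.8 and 41.8 CPM with Slam antibody, against 12.8, 10.1, 10.5 and 11.4 CPM with Dia antibody. Every Slam antibody library lay above every Dia antibody library. The log2 ratio was 1.63 (SE 0.251, edgeR adjusted p = 0.00215). By size of the ratio, mRpL47 stood at place 545 of 7466 genes, and at place 109 by p. mRpL47 passed in all 15 alternatives of this comparison, with log2 ratios between 1.44 and 1.75. The span of mRpL47 overlaps that of Rlb1 by 6 bases, and Rlb1 did not pass (log2 ratio −0.07, SE 0.244, edgeR adjusted p = 0.870).

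mRpL12 encodes the homolog of bacterial L12, the flexible stalk protein that draws translation factors to the ribosome. It was read at 34.9, 41.3 and 37.2 CPM with Slam antibody, against 59.5, 69.2, 57.7 and 57.7 CPM with Dia antibody. The groups did not overlap. The log2 ratio was −0.69 (SE 0.185, edgeR adjusted p = 0.0354). The call was lost without Slam antibody library 1, 2 or 3 or without Dia antibody library 1, where the adjusted p lay between 0.0529 and 0.116 by edgeR, and it held in the other 11 of 15 alternatives.

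mRpS6, the homolog of bacterial S6 on the platform of the small subunit (3L:4364550-4365243 in the same table), had the lowest log2 ratio of the members and did not pass. It was read at 11.8, 15.6 and 13.9 CPM with Slam antibody, against 30.9, 46.1, 33.6 and 14.6 CPM with Dia antibody. Dia antibody library 4 fell among the Slam antibody libraries, and the other 3 controls lay above all of them. The log2 ratio was −1.18 (SE 0.349, edgeR adjusted p = 0.0508). With the replicate block it was −1.41 (edgeR adjusted p = 0.00394), and without Dia antibody library 4 it was −1.42 (edgeR adjusted p = 0.00857).

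**Figure D2:**
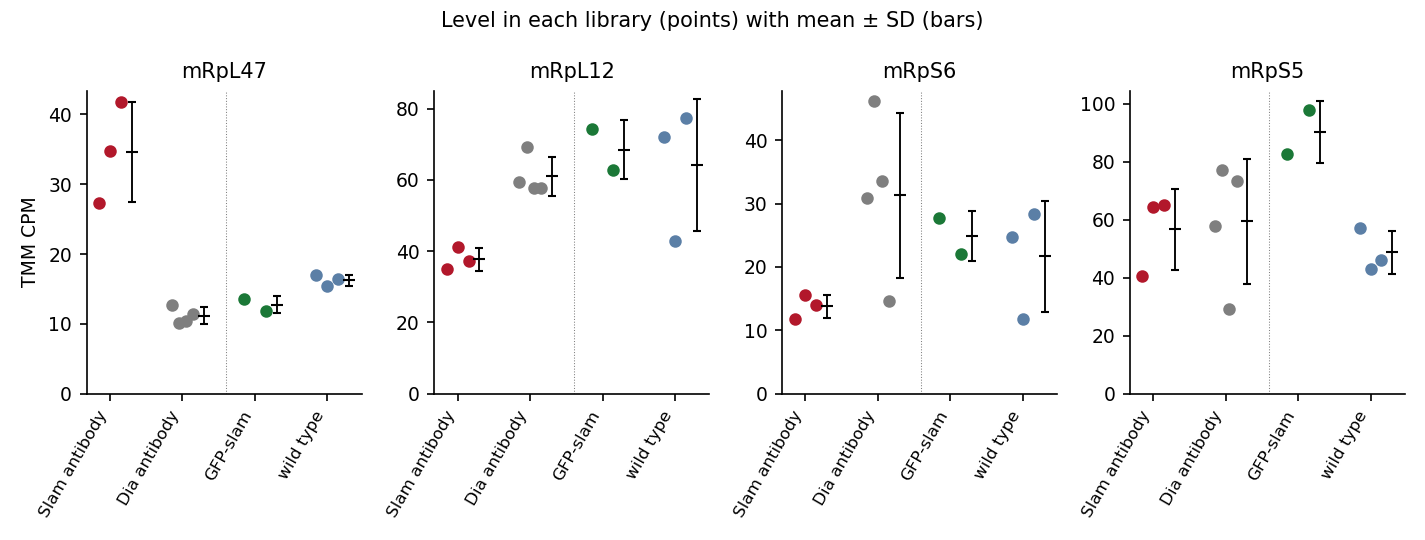
TMM CPM of 4 members (y axis, from 0) in each library of the 4 groups (x axis), with mean ± SD as bars beside the points. mRpL47 is at 27.4 to 41.8 CPM with Slam antibody and at 10.1 to 16.9 CPM in every other library, mRpL12 and mRpS6 are lower with Slam antibody than in at least 3 of the 4 Dia antibody libraries, and mRpS5 is higher in GFP-slam than in wild type without overlap.

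Most of the remaining members lay near 0. The median log2 ratio of the 72 members was −0.14, with quartiles at −0.35 and 0.01, beside a median of −0.03 over all 7466 genes. The median was −0.07 without Slam antibody library 1 and −0.27 without Slam antibody library 2, and it stayed below 0 without any single library. 51 members were below 0 and 21 above, that is 70.8% negative beside 52.3% of all genes. 58 of the 72 members (80.6%) lay within 0.5 of 0 on the log2 scale, against 62.7% of all genes. The groups did not overlap for 5 members that were higher and 7 that were lower with Slam antibody, which is 6.94% and 9.72% of the members beside 15.2% and 12.2% of all genes. The higher ones were mRpL47, mRpL43, mRpL22, mRpS25 and mRpL19, and the lower ones mRpL12, mRpL1, mRpL24, mRpL45, mRpL10, mRpL16 and mRpL41.

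Among the higher members that did not pass, mRpL22 and mRpL43 came nearest to the size of mRpL47. mRpL22, a homolog of bacterial L22 that lines the peptide tunnel, was read at 32.9, 35.7 and 35.9 CPM with Slam antibody, against 15.6, 23.9, 22.9 and 22.1 CPM with Dia antibody (log2 ratio 0.72, SE 0.226, edgeR adjusted p = 0.0603). mRpL43, a protein added in mitochondria, was read at 13.8, 21.8 and 16.8 CPM with Slam antibody, against 10.4, 10.4, 12.5 and 7.30 CPM with Dia antibody (log2 ratio 0.79, SE 0.325, edgeR adjusted p = 0.131). The groups did not overlap for either gene. Among the lower ones, mRpL1, the homolog of bacterial L1 at the site where tRNA leaves, was read at 60.5, 55.3 and 59.6 CPM with Slam antibody, against 82.9, 89.4, 111 and 75.1 CPM with Dia antibody (log2 ratio −0.61, SE 0.189, edgeR adjusted p = 0.0581). DESeq2 called mRpL22 higher and mRpL1 and mRpS6 lower beside mRpL47 and mRpL12, and so did the fit of all 12 libraries together. DESeq2 thus called 2.78% of the members higher and 4.17% lower, beside 10.4% and 6.64% of all genes. For the fit of all 12 libraries the same shares of members stood beside 7.95% and 4.98% of all genes.

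The classes of members did not stand far from each other. The median log2 ratio was −0.15 for the 46 members of the large subunit and −0.12 for the 26 of the small subunit. It was −0.17 for the 45 homologs of bacterial proteins and −0.09 for the 27 others. Both members that passed were large-subunit proteins with a bacterial homolog. The 42 kept members whose span overlaps another gene had a median of −0.17, and the 30 without such an overlap −0.08. These differences between classes were not tested.

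In the GFP-binder experiment no member passed. Of the 72 members kept, 0 were higher and 0 lower in GFP-slam than in wild type by edgeR's quasi-likelihood test, beside 0.525% and 0.228% of 8767 genes. At an unadjusted p under 0.05, 2 members were higher (mRpS5 and mRpL4) and 0 lower, which is 2.78% of the members higher beside 3.08% of all genes, with 2.87% of all genes lower. DESeq2 called 1 member higher, mRpS5, which is 1.39% of the members beside 1.29% of all genes. The median log2 ratio was 0.05 (all genes 0.02), with 50 members above 0 and 22 below, and 95.8% of them lay within 0.5 of 0, against 77.5% of all genes. The sign of this median rested on single libraries, as it was −0.05 without GFP-slam library 1 and −0.14 without wild-type library 2. With a replicate block, which also leaves out wild-type library 2, it was −0.15. The groups did not overlap for 4 members that were higher (mRpS5, mRpL4, mRpS7 and mRpL16) and 3 that were lower (mRpL39, mRpL37 and mRpL47), which is 5.56% and 4.17% of the members beside 8.98% and 8.42% of all genes.

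mRpS5, the homolog of bacterial S5 near the entry of the mRNA, had the highest ratio. It was read at 82.7 and 97.9 CPM in GFP-slam, against 57.2, 42.9 and 46.1 CPM in wild type. Both GFP-slam libraries lay above all wild-type libraries (log2 ratio 0.89, SE 0.240, edgeR adjusted p = 0.231, DESeq2 adjusted p = 0.0340). With Slam antibody the same transcript was read at 40.6, 64.6 and 65.2 CPM, against 57.8, 77.0, 29.4 and 73.5 CPM with Dia antibody, where the groups overlapped (log2 ratio −0.07, SE 0.305). mRpL39 had the lowest ratio, with 122 and 114 CPM in GFP-slam, against 135 to 193 CPM in wild type (log2 ratio −0.42, SE 0.262, edgeR adjusted p = 0.9999).

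**Figure D3:**
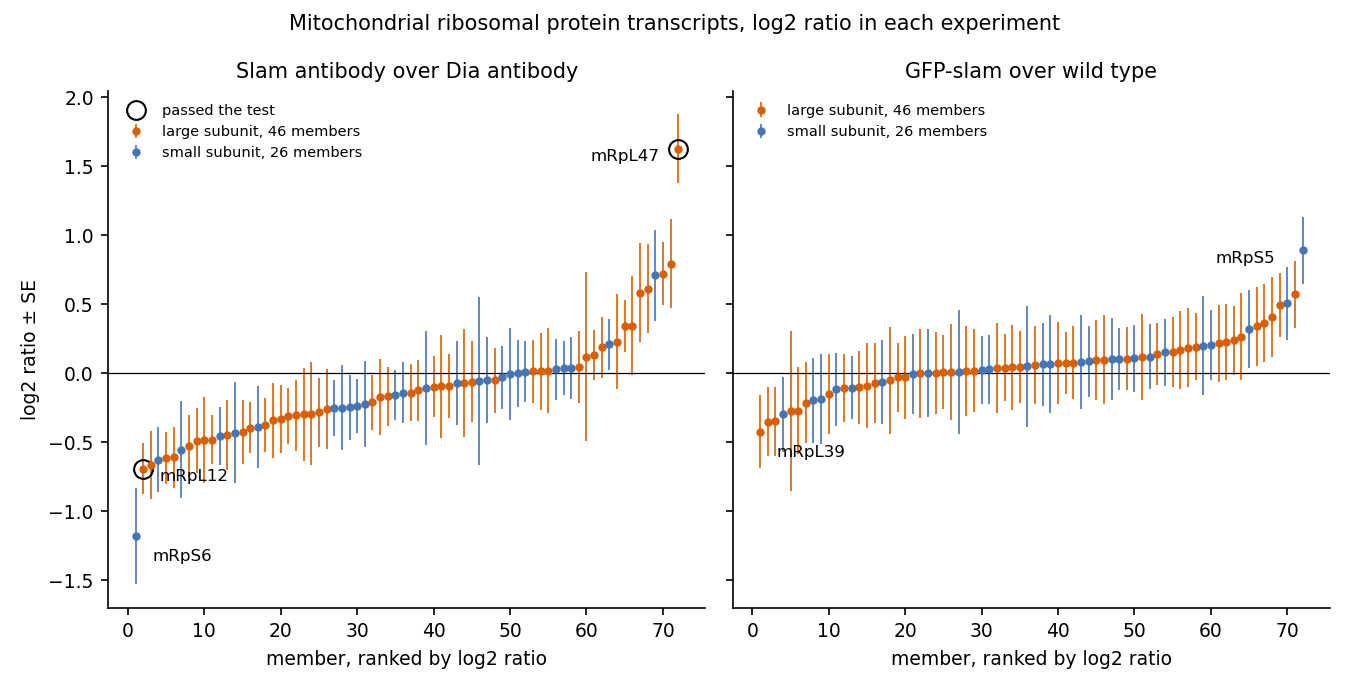
Log2 ratio ± SE (y axis) of the 72 members kept, ranked within each experiment (x axis), for Slam antibody over Dia antibody (left) and GFP-slam over wild type (right), colored by subunit. Rings mark the 2 members that passed, mRpL47 at 1.63 and mRpL12 at −0.69, and the right panel has none.

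The ratio of mRpL47 differed between the experiments. In GFP-slam it was read at 13.6 and 11.9 CPM, against 16.9, 15.4 and 16.4 CPM in wild type. Here the GFP-slam libraries lay below all wild-type libraries, by a log2 ratio of −0.35 (SE 0.251, edgeR adjusted p = 0.9999), opposite to the ratio with Slam antibody. The difference of the log2 ratios, Slam antibody over Dia antibody minus GFP-slam over wild type, was 1.99 (SE 0.345, edgeR adjusted p = 0.00430, interaction contrast in a fit of all 12 libraries). It passed in all 17 alternatives, with values between 1.84 and 2.14. mRpL47 was the 1 member whose difference passed as higher, and 0 members passed as lower, beside 2.67% and 0.653% of 7197 genes. At an unadjusted p under 0.05, 3 members had a higher and 9 a lower difference, that is 4.17% and 12.5%, beside 11.3% and 8.11% of all genes. For mRpL12 the difference was −0.77 (SE 0.311, edgeR adjusted p = 0.198) and for mRpS6 −1.36 (SE 0.536, edgeR adjusted p = 0.184), so that neither was shown to differ between the experiments.

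Both experiments share no library, and their ratios can be set side by side. 39 of the 72 members were below 0 with Slam antibody and above 0 in GFP-slam. 11 were above 0 in both, 12 below 0 in both, and 10 above 0 with Slam antibody and below 0 in GFP-slam. As 51 of the 72 were below 0 with Slam antibody and 50 above 0 in GFP-slam, many must fall in the first of these cells. Whether 39 exceeds what these totals give was not tested. Across the 72 members the ratios correlated with r = −0.334 (Spearman −0.284), and across 7197 genes with r = −0.144 (Spearman −0.128), which is a description across genes that share libraries.

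**Figure D4:**
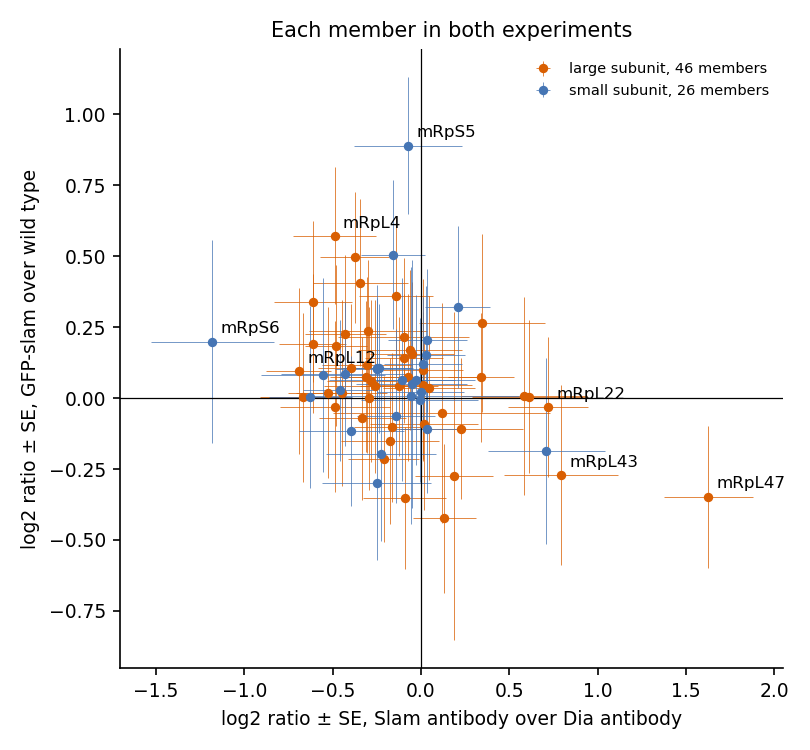
Log2 ratio ± SE of each of the 72 members for Slam antibody over Dia antibody (x axis) and for GFP-slam over wild type (y axis), colored by subunit. mRpL47 lies alone at the right, at 1.63 and −0.35, mRpS5 at the top, at −0.07 and 0.89, and no member is far above 0 on both axes.

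With Slam antibody and in wild type, 1 library of the group held the lowest value for most members. Slam antibody library 1 held the lowest value of its group for 58 of 72 members and library 2 the highest for 51. Of the 4 Dia antibody libraries, library 4 held the lowest value for 32 members, and libraries 1, 2 and 3 for 10, 13 and 17. The lowest value of wild type was found in library 2 for 60 members, and GFP-slam library 3 was below GFP-slam library 1 for 54. With only 2 libraries in GFP-slam, 1 of them is lowest for most members unless they split evenly. The median log2 deviation from the group mean was −0.21 in Slam antibody library 1, −0.15 in Dia antibody library 4, −0.13 in GFP-slam library 3 and −0.30 in wild-type library 2. Each of these offsets is larger in size than the median ratio of the members between the groups of its own experiment, which is −0.14 with Slam antibody and 0.05 in GFP-slam.

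Not all members followed these libraries, as 18 of the 72 were higher in GFP-slam library 3 than in GFP-slam library 1. mRpL3, the homolog of bacterial L3 near the peptidyl transferase center, was read at 41.0 and 126 CPM in GFP-slam libraries 1 and 3, against 95.4, 154 and 53.8 CPM in wild-type libraries 1 to 3. Its lowest and highest libraries differed 3.07-fold within GFP-slam and 2.86-fold within wild type. With Slam antibody they differed 1.11-fold and with Dia antibody 1.81-fold. mRpL34 and mRpL55 had the widest spread of all members within a group. mRpL34, the homolog of bacterial L34, was read at 5.65, 4.07, 7.12 and 1.64 CPM with Dia antibody (4.35-fold), and mRpL55, a protein added in mitochondria, at 20.02, 27.8, 7.12 and 16.8 CPM (3.90-fold). The low values came from different libraries, library 4 for mRpL34 and library 3, the shallowest of all, for mRpL55. The highest library exceeded the lowest by a median of 1.38-fold over the 72 members with Slam antibody, 1.64-fold with Dia antibody, 1.25-fold in GFP-slam and 1.55-fold in wild type, from 3, 4, 2 and 3 libraries.

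**Figure D5:**
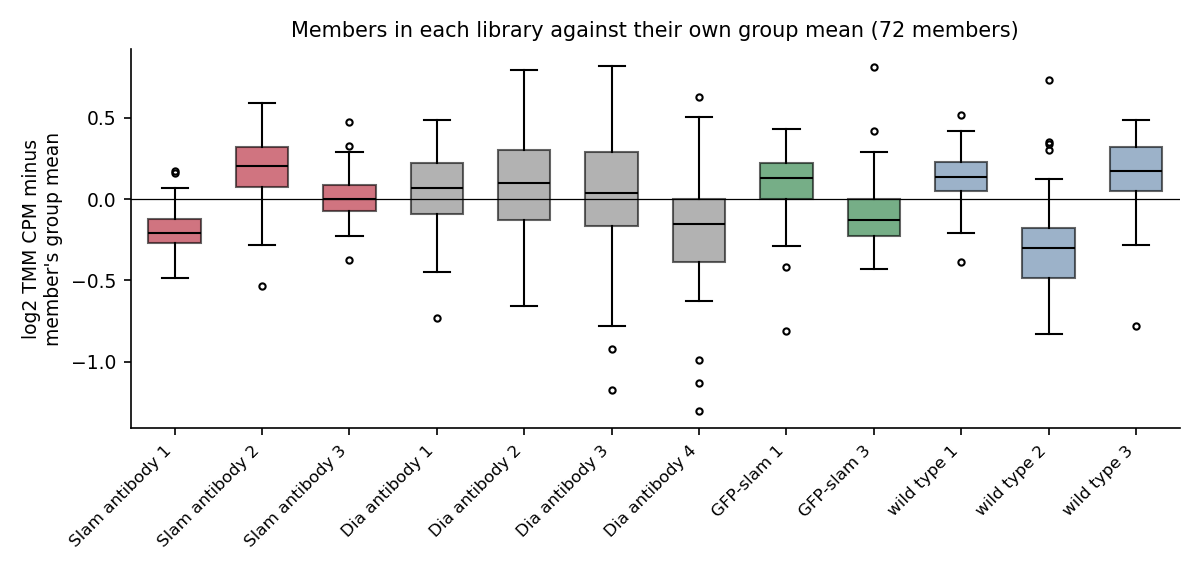
Log2 TMM CPM of each of the 72 members minus its own group mean (y axis) in the 12 libraries (x axis). Boxes span the quartiles around the median, whiskers reach the farthest member within 1.5 box heights and circles are members beyond them; Slam antibody 1 (median −0.21), Dia antibody 4 (−0.15) and wild type 2 (−0.30) lie below their groups.

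Other transcripts of the same organelle were compared in the same fits. tko and bonsai, which encode mitochondrial ribosomal proteins under other symbols, did not pass with Slam antibody (log2 ratios −0.51, SE 0.197, and −0.47, SE 0.235). The 3 mitochondrial translation factors EfTuM, ico and EF-G2 lay between −0.02 and 0.04, and the 2 mitochondrial aminoacyl-tRNA synthetases Aats-tyr-m and Aats-ala-m at 0.34 and 0.21. None of these 5 passed, nor did any of 10 genes that maintain or transcribe mitochondrial DNA (median −0.03). Of 23 nuclear subunits of oxidative phosphorylation, 0 passed as higher and 2 as lower, both of ATP synthase: ATPsyn-Cf6 (log2 ratio −1.001, SE 0.192, edgeR adjusted p = 0.00896) and ATPsyn-d (log2 ratio −0.71, SE 0.203, edgeR adjusted p = 0.0452). Their median was −0.31, and 22 of the 23 were below 0. The cytoplasmic ribosomal proteins, counterparts of the members in the other ribosome of the cell, had a median of −0.72, with 40 of 83 lower and 0 higher, RpL23A (log2 ratio −1.50, SE 0.243, edgeR adjusted p = 0.00310) with the lowest p. They took 4.16% to 6.80% of the counts with Slam antibody and 7.66% to 11.7% with Dia antibody. In the GFP-binder experiment 0 genes of any of these lists passed, and the medians were 0.09 for oxidative phosphorylation and −0.06 for cytoplasmic ribosomal proteins. Whether the members differ from these lists was not tested.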

How the data were processed

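The tools in the submitters' processing notes are STAR 2.5.0, bcl2fastq 2.17.1.14, DESeq2 and FastQC 0.11.4, with no role named. Which tool counted reads, on which strand and over which build and annotation, is not given in the sources used here. Whole numbers of reads per gene, that is counts, were deposited by the authors for each library. Tables of their own comparisons (mean normalized counts, log2 ratios, adjusted p-values) were read for gene coordinates only.

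Each experiment was fitted apart on its whole table with edgeR 4.0.16 in R 4.3.3 (TMM, robust glmQLFit, glmQLFTest), with p-values adjusted by Benjamini-Hochberg over all kept genes and called under 0.05. The minimum of counts was a mean normalized count of 50 with the antibodies and of 10 with the GFP-binder, as the limits in the study's methods were read. The difference of the experiments was a contrast in a fit of all 12 libraries over genes kept in both. SEs are log2 ratios, without sign, over the square root of F. The fits were tested on simulated counts. Figures were drawn with matplotlib 3.10.9 under Python 3.11.15.

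Members, lists and tests were chosen with earlier results of these data known. Named by rule were members that passed, those with the highest and lowest log2 ratio, the 3 with most and fewest reads in each control group, those not kept, and the 2 with the widest spread. Other members were named after their values were seen. The alternatives were RLE size factors, total counts, filterByExpr, no minimum of counts, DESeq2 1.42.0, a replicate block, 1 fit of 12 libraries and leaving out each library. TMM over the genes kept was added after seeing the data.

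The labels number the replicates without saying what a number shares. Deviations from the group means of same-numbered antibody libraries correlated at 0.245, 0.385 and 0.155, each over 0.1. These numbers were therefore taken as pairs in the replicate block, which is an alternative. The main tests had no block and treat the libraries as unpaired. Some other pairs correlated too, Slam antibody 3 with Dia antibody 4 at 0.258 and Slam antibody 1 with Dia antibody 3 at 0.124, and over the members alone the third pair was at 0.0549. The GFP-binder experiment has only 2 pairs (0.205 and 0.236 over all genes kept). Over the members alone these pairs were at 0.227 and −0.691. Unlike numbers reached 0.691 there for GFP-slam 1 with wild type 3, and 0.684 for GFP-slam 3 with wild type 2. The deviations of the 2 GFP-slam libraries mirror each other, so 0.691 and −0.691 are 1 value with the sign turned. Replicates of a group differed over the members by more than counting error, with a chi-square per degree of freedom of 7.32 to 90.5.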

Additional observations from a re-analysis of the deposited data

Results flagged for a closer look

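The difference of the log2 ratios of mRpL47 between the experiments was 1.99 (SE 0.345, edgeR adjusted p = 0.00430), as all 3 Slam antibody libraries lay above all 4 Dia antibody libraries while both GFP-slam libraries lay below all 3 wild-type libraries.

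mRpL12 in Dia antibody library 2 lay apart from its group, at 69.2 CPM beside 57.7 to 59.5 CPM in the other 3 libraries. It was the 1 such value among 73 members examined in the 4 Dia antibody libraries, where chance alone flags about 1 in 20.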

How the results depend on the processing

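mRpL47 passed with Slam antibody, and in the difference of the experiments, under every alternative run. The count of members lower with Slam antibody was 1 as reported. It was 2 (2.78%) with RLE size factors, total counts, filterByExpr or no minimum of counts, beside 3.58%, 5.57%, 3.03% and 2.74% of all genes. With DESeq2 or 1 fit of 12 libraries it was 3 (4.17%), beside 6.64% and 4.98% of all genes. With the replicate block it was 6 (8.33%), beside 8.44%. Leaving out 1 library gave 0 to 4. The count was 0 without Slam antibody library 1, 2 or 3 or Dia antibody library 1, beside 1.62%, 0.332%, 1.02% and 2% of all genes. Without Dia antibody library 4 it was 4 (5.56%), beside 5.91% of all genes. The count of higher members, 1 as reported, was 2 (2.78%) with DESeq2 or 1 fit of 12 libraries, beside 10.4% and 7.95% of all genes. In GFP-slam it was 0, and 1 (1.39%) with DESeq2, beside 1.29% of all genes. The block, which keeps 2 pairs there, called 0. The cause of these changes was not tested, except that leaving out a library leaves fewer samples. The block changed no call in GFP-slam, and in the antibody experiment only the added lower members. It also leaves out Dia antibody library 4 and wild-type library 2, so blocking and the loss of a library cannot be told apart. mRpL12 passed in 11 of 15 alternatives and mRpS6 in 8 of 15. The median log2 ratio of the members in GFP-slam, 0.05, was −0.15 with the block. Over all genes, 511 higher and 270 lower with Slam antibody became 772 and 494 with DESeq2 and 797 and 635 with the block, and 46 higher and 20 lower in GFP-slam became 109 and 87 with DESeq2, 121 and 165 with no minimum of counts, and 15 and 8 without wild-type library 2. On TMM library sizes the members took 0.224% to 0.272% with Slam antibody and 0.249% to 0.290% with Dia antibody, which still overlapped. Depth limits the members with few reads, since Dia antibody library 3 held a median of 141 reads per member and 29 for the least read one.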
